A study of Homo sapiens with 2 samples.

Results

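Cyclins, cyclin-dependent kinases (CDKs), CDK inhibitors and the proteins that share their gene names were compared between MDA-MB-231 cells given a miR-544 antagomir and cells given compound 1. Genes were taken by symbol alone: CCN followed by a letter, CDK followed by a digit or CDKN followed by a digit, protein-coding, with the matricellular CCN1 to CCN6 genes left out. No measured value entered the choice. The rule found 55 of the 11916 protein-coding genes with a named transcript cluster: 27 named CCN, 24 named CDK and 4 named CDKN. Of these, 52 were measured, as were 9584 protein-coding genes in all. A gene counted as measured when the higher of its values on the arrays reached a log2 level of 5.60, the median of mean levels over all clusters.

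MDA-MB-231 is an established human breast cancer line that grows without estrogen receptor signalling. Per the labels, cells received either the antagomir, an oligonucleotide that blocks miR-544, or compound 1 for 24 hours, and were then kept at below 1% oxygen for 5 days. Hypoxia is thus common to both treatments, and no untreated or normoxic array was used here. RNA was pooled before hybridisation, and each treatment is represented by 1 array. There is therefore no replicate error and no test, and each difference (compound 1 minus antagomir, on the log2 scale) describes these arrays only. The sources used here do not state the log base of the deposited values, and folds assume base 2.

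The cell cycle is driven by CDKs, protein kinases that are active only when bound to a cyclin. D cyclins with CDK4 and CDK6 start the inactivation of the retinoblastoma protein, E and A cyclins with CDK2 drive entry into and passage through S phase, and A and B cyclins with CDK1 drive mitosis. Inhibitors of the CIP/KIP and INK4 families restrain these kinases. A separate branch of the family (cyclins C, H, K, L and T with CDK7 to CDK13 and CDK19) acts mainly on RNA polymerase II, Mediator and splicing, and CDK7 with cyclin H also activates the cell cycle CDKs.

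Genes of mitotic entry were lower on the compound 1 array by close amounts, while the D and E cyclins were mixed in direction. CCNB1, CCNB2, CDK1 and CCNF had differences of -0.29 to -0.24, and CCNA2 had -0.23. Such differences were not limited to mitotic genes. CCNH and CCNC of the transcription branch, where 10 genes were lower and 5 higher, had -0.28 and -0.27. The kinases CDK4, CDK2 and CDK6 had -0.19, -0.18 and -0.14. CCND1 and CCNE1 had differences of -0.016 and 0.028, and CCND2 was higher by 0.39 in one of its clusters. In all, 38 of the 52 measured genes (73.1%) were lower on the compound 1 array, against 58.9% of all measured protein-coding genes. The median was -0.10, against -0.041 over all measured protein-coding genes. None of the 52 reached 1.5-fold; 6 were at least 1.2-fold lower (11.5%, against 9.12% of all measured protein-coding genes) and 3 at least 1.2-fold higher (5.77%, against 5.23%). Both shares past 1.2-fold are near those of all genes.

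The lower share depends on how the arrays are scaled. After quantile normalization 29 of the 52 (55.8%) were lower, against 49.4% of all measured protein-coding genes, and after cyclic loess 33 (63.5%), against 51.3%. The direction was the same in the deposited values and under all 3 scalings (median centring, quantile normalization, cyclic loess) for 41 genes and turned for 11, whose deposited differences ran from -0.074 (CCNI) to 0.028 (CCNE1). The difference also varied with level. In the deposited values the median difference of protein-coding genes ran from 0.065 in the lowest of 20 level bins to -0.072 in the highest, and 31 of the 52 genes lay below the median of their own bin. The part of this trend in the members' differences was not tested. The median departure from that bin median was -0.027.

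**Figure D1:**
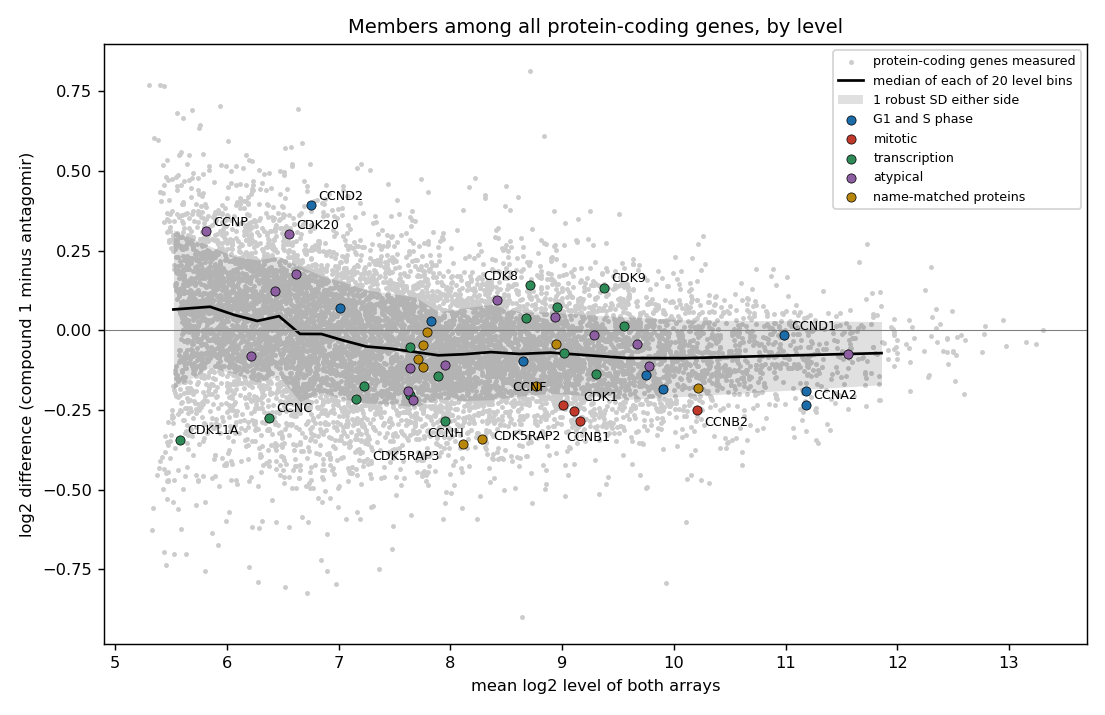
Log2 difference (compound 1 minus antagomir) against the mean log2 level of both arrays for 9584 protein-coding genes (grey) and the 52 measured members (coloured by role), with the median of each of 20 level bins (line) and 1 robust SD either side (band). The mitotic genes sit together at differences of -0.24 to -0.29, below the line, and CCND2 stands above the band at 0.39.

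The promoters of the mitotic genes are shown first, because their differences lay close together, with CCNA2 beside them and CCNE1 as a gene of the same family at a difference of 0.028. Each run is the 250 bases before the RefSeq start, read 5′ to 3′ along the gene, from the GRCh38.p14 table. Capitals mark CCAAT (or ATTGG on the opposite strand), the letters TTTGAA or TTCGAA of the cell cycle genes homology region (CHR), and 2 spellings added after the sequences had been read, TTTAAA and CTTGAA. The CHR is an element known for the timing of late cell cycle genes, often with CCAAT boxes upstream. The windows are chr5:69166900-69167149 (+ strand) for CCNB1, chr15:59104896-59105145 (+ strand) for CCNB2, chr10:60778081-60778330 (+ strand) for CDK1, chr16:2429197-2429446 (+ strand) for CCNF, chr4:121823884-121824133 (- strand) for CCNA2 and chr19:29811741-29811990 (+ strand) for CCNE1.
CCNB1: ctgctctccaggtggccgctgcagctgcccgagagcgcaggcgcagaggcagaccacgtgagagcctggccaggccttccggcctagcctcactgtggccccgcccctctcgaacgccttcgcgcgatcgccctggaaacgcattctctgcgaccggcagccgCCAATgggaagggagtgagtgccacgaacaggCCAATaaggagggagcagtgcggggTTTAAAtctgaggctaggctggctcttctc
CCNB2: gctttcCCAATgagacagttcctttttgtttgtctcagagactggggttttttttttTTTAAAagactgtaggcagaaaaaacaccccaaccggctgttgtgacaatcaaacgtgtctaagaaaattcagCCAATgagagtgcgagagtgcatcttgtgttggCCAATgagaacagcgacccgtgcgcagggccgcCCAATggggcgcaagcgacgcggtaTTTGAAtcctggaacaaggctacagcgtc
CDK1: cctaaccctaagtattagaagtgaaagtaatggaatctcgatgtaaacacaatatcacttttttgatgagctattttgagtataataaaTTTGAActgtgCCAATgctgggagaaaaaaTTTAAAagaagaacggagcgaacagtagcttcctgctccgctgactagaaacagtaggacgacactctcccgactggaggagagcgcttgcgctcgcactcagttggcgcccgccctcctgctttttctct
CCNF: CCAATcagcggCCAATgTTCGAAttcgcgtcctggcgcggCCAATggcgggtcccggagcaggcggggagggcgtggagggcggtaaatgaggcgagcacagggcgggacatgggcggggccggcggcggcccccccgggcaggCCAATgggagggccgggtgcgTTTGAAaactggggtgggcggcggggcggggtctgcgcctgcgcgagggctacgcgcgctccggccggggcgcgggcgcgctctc
CCNA2: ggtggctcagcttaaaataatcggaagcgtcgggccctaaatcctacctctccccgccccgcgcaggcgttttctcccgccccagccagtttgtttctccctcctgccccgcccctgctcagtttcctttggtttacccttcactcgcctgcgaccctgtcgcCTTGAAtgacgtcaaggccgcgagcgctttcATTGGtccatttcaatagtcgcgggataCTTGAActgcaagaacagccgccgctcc
CCNE1: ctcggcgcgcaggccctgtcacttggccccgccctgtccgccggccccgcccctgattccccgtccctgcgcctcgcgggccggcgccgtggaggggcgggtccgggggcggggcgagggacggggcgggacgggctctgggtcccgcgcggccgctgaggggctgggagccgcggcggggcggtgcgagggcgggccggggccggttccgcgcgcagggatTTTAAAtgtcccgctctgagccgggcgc

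The CCNB2 window holds 4 CCAAT boxes and TTTGAA beginning at position -29 (the base before the start is -1). CCNF also holds 4 CCAAT boxes, with TTTGAA at position -85 and TTCGAA at -233. In CCNB1 there are 2 CCAAT boxes, at -87 and -55, and TTTAAA at -30. CCNA2 has 1 box on the opposite strand at -56 and CTTGAA at -87 and -28. The CDK1 window belongs to the first of 2 listed starts and has TTTGAA at -161 and a CCAAT box at -150. The window of the second start, not printed, holds 2 matches to the CHR letters, 2 CCAAT boxes and 1 E2F match. CCNE1 has no CCAAT box and has TTTAAA at -28. Its difference was 0.028 as deposited and -0.0017 after median centring. Of the 55 genes, 51 matched the promoter table, which lists 27305 genes with 35116 promoters, and the first listed start was used. Of the 48 measured genes with a promoter, 11 held the added letters on either strand (22.9%). The shares were 19.2% of all promoters and 12.5% of those of measured protein-coding genes. The added letters lay in 8 of 35 lower and 3 of 13 higher members.

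**Figure D2:**
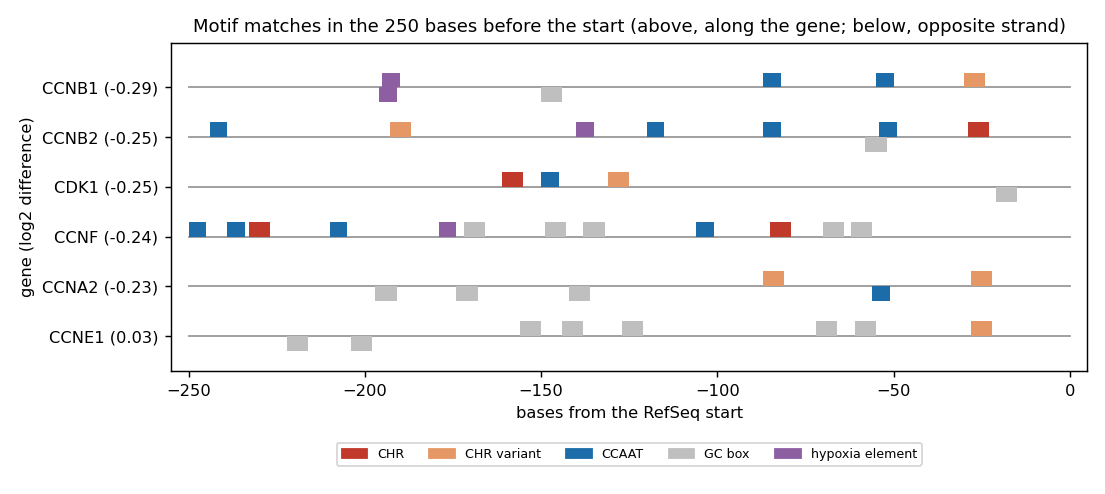
Motif matches in the 250 bases before the RefSeq start of 6 genes, by distance from the start (bases), with matches along the gene above each line and on the opposite strand below it; the log2 difference stands beside each gene name. CCNB2 and CCNF each carry 4 CCAAT boxes, CCNB1 carries 2, CDK1 and CCNA2 carry 1 each and CCNE1 none.

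Over the 48 measured genes with a promoter, TTTGAA or TTCGAA on either strand was found in 7 (14.6%), against 14.3% of all promoters of the same length and 9.71% of those of the 7869 measured protein-coding genes with a promoter. Those 7 genes had a median difference of -0.24 and the other 41 had -0.082. They were CCNB2, CCNF, CDK1, CCNC, CDK19 and CDKN3, all lower, and CCNP, which was higher. Among those 7869 genes the same letters went with a median of -0.076 (764 genes), against -0.045 without them (7105 genes). At least 2 CCAAT boxes were held by 11 members (22.9%), against 9.53% of all promoters and 12.3% of those of measured protein-coding genes. Of the 11, 10 were lower, as were 35 of all 48, and the 969 measured protein-coding genes with 2 or more boxes had a median of -0.068. CDK2AP2 held the most boxes, 5, at a difference of -0.045. CCNG1 held 4 at -0.11, and CCNJL, with 2, was higher (0.096).

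Of the other motifs, at least 1 CCAAT box was present in 20 of 48 (41.7%, against 32.0% of all promoters and 34.7% of those of measured protein-coding genes). An E2F site (TTTCCCGC, TTTGGCGC or TTTCGCGC) was found in 3, namely CCNO, CDK10 and CDK19 (6.25%, against 2.32% and 3.69%). The GC box GGGCGG was in 35 (72.9%, against 42.6% and 65.8%). The core of the hypoxia response element (ACGTG or GCGTG) was in 27 (56.2%, against 43.2% and 56.0%), a share next to that of measured protein-coding genes. Medians with and without the hypoxia core were -0.11 and -0.091. All motifs were searched on both strands. In CCNB2 the GC box at -58 overlaps the CCAAT box at -54. A match is a description of letters, not of a bound site.

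The 4 measured mitotic genes of 5 were all lower, with a median of -0.25. CCNB1, the main mitotic cyclin, had log2 levels of 9.31 with the antagomir and 9.02 with compound 1 (1.22-fold lower). Levels below are given in this order. CDK1, its catalytic partner and the kinase of mitotic entry, was at 9.23 and 8.98. For CCNB2, the Golgi-associated B cyclin, the levels were 10.34 and 10.09. All 3 subunits were lower within 0.035 of each other. CCNF encodes cyclin F, an F-box protein that binds substrates of a ubiquitin ligase and no CDK, and was at 9.12 and 8.89.

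Of measured protein-coding genes, 7.44% had a lower difference than CCNB1 and 11.8% a lower one than CCNF. The 4 lie at -1.64 to -1.30 robust SDs from the medians of their level bins. After quantile normalization the 4 ranged from -0.21 to -0.16 and after cyclic loess from -0.21 to -0.17, so all stayed lower but under 1.2-fold. After median centring they ranged from -0.31 to -0.27, and all 4 were past 1.2-fold, against 1 as deposited. Centring lowered every difference by the same amount. Over all 9584 measured protein-coding genes, 1148 were then at least 1.2-fold lower, against 874 as deposited. CCNB3, a B cyclin of meiosis, did not reach the entry level on either array (4.32 and 4.52).

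**Figure D3:**
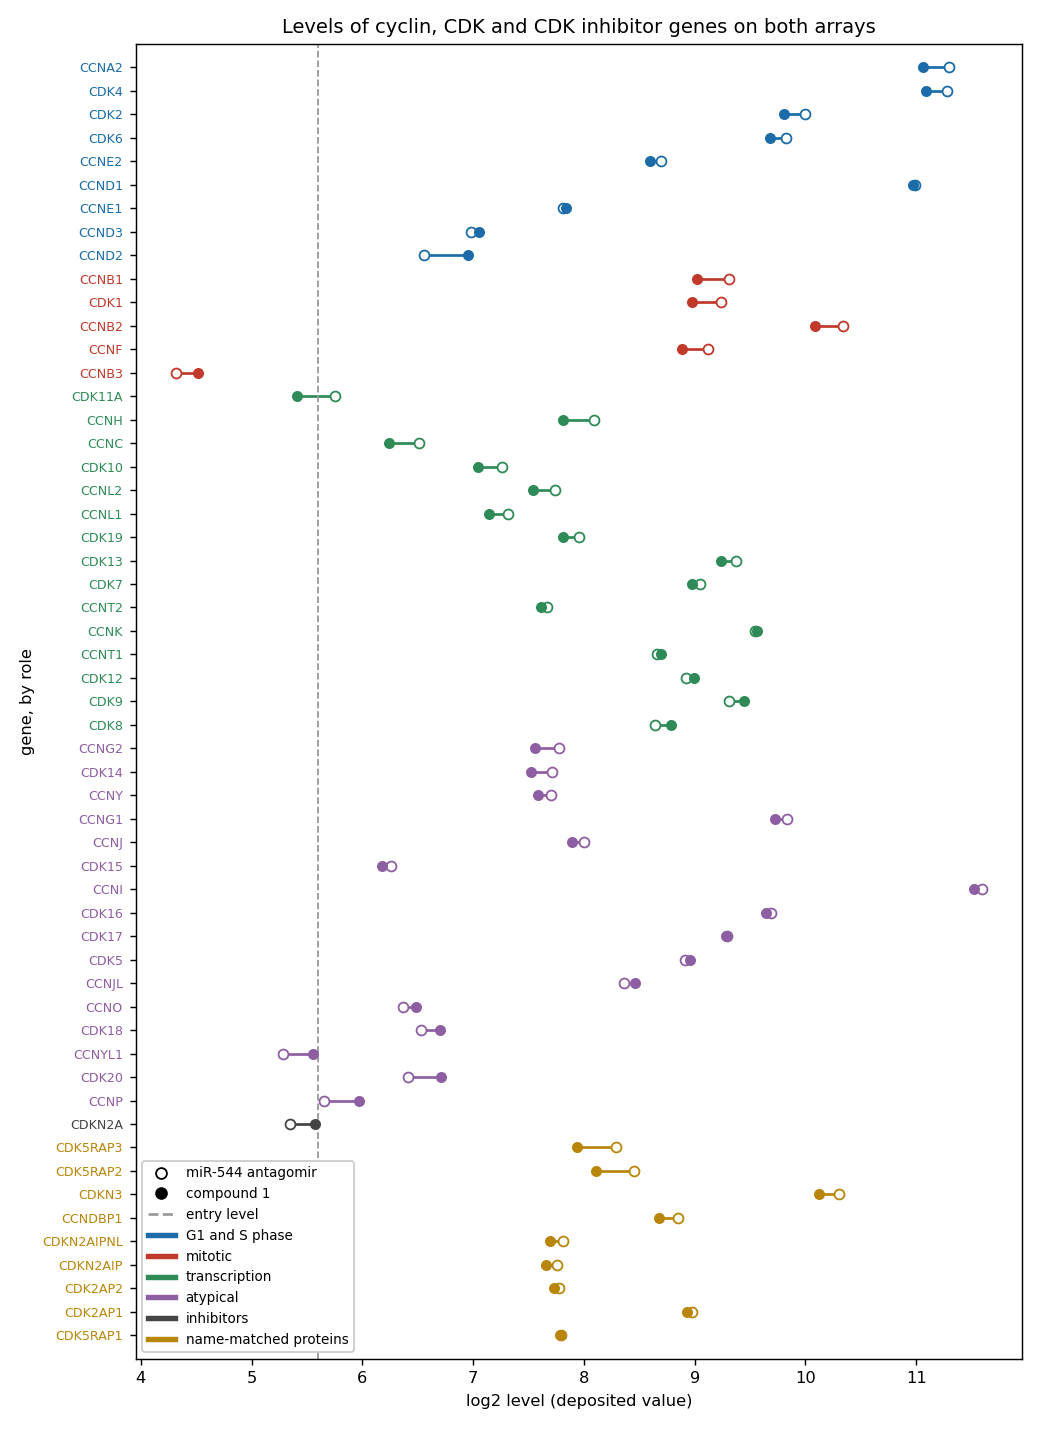
Log2 level of each of the 55 genes on the antagomir array (open circles) and the compound 1 array (filled circles), grouped by role; the dashed line is the entry level of 5.60. The 4 measured mitotic genes lie to the left on the compound 1 array, while CCNB3, CCNYL1 and CDKN2A lie under the entry level on both arrays.

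Among the 9 genes of G1 and S phase, 6 were lower and 3 higher, with a median of -0.096. CCNA2 encodes the A cyclin that serves both S phase and mitosis, and was at 11.30 and 11.06. CDK4, the kinase of the D cyclins, stood at 11.28 and 11.09 (-0.19). CDK2, the partner of cyclins E and A, was at 9.99 and 9.81 (-0.18). These 3 were lower on the compound 1 array under every scaling run. CDK6, the other D cyclin kinase, was at 9.82 and 9.68 (-0.14), and the E cyclin gene CCNE2 at 8.70 and 8.60 (-0.096).

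CCND1, CCNE1 and CCND3 had differences of less than 1.1-fold in the deposited values. CCND1, the D cyclin most often amplified in breast cancer, was at 10.99 and 10.97, a difference of -0.016 that turned to 0.045 after quantile normalization. CCNE1, the cyclin that starts S phase with CDK2, was at 7.81 and 7.84, a difference of 0.028 that turned to -0.0017 after centring. CCND3 was at 6.98 and 7.05 (0.070).

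CCND2 had the highest difference of all members, and it was not the same in both of its clusters. Its chosen cluster, the one with the higher mean, was at 6.56 and 6.95 (1.31-fold higher), 2.21 robust SDs above the median of its level bin. Of the 52 genes, 1 lay more than 2 robust SDs away. The share of all measured protein-coding genes past this limit was not counted, so the number has no baseline. The other CCND2 cluster was at 6.06 and 5.99, a difference of -0.079. In the order of cluster numbers, 13 of 14 neighbours of the first cluster with a known strand lie on the plus strand, and 12 of 13 neighbours of the other lie on the minus strand. The sources used here do not give the strand of the clusters themselves. Whether both clusters measure the same transcript was not tested. CCND2 is the only member with more than 1 named cluster, so no other gene had clusters to compare.

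**Figure D4:**
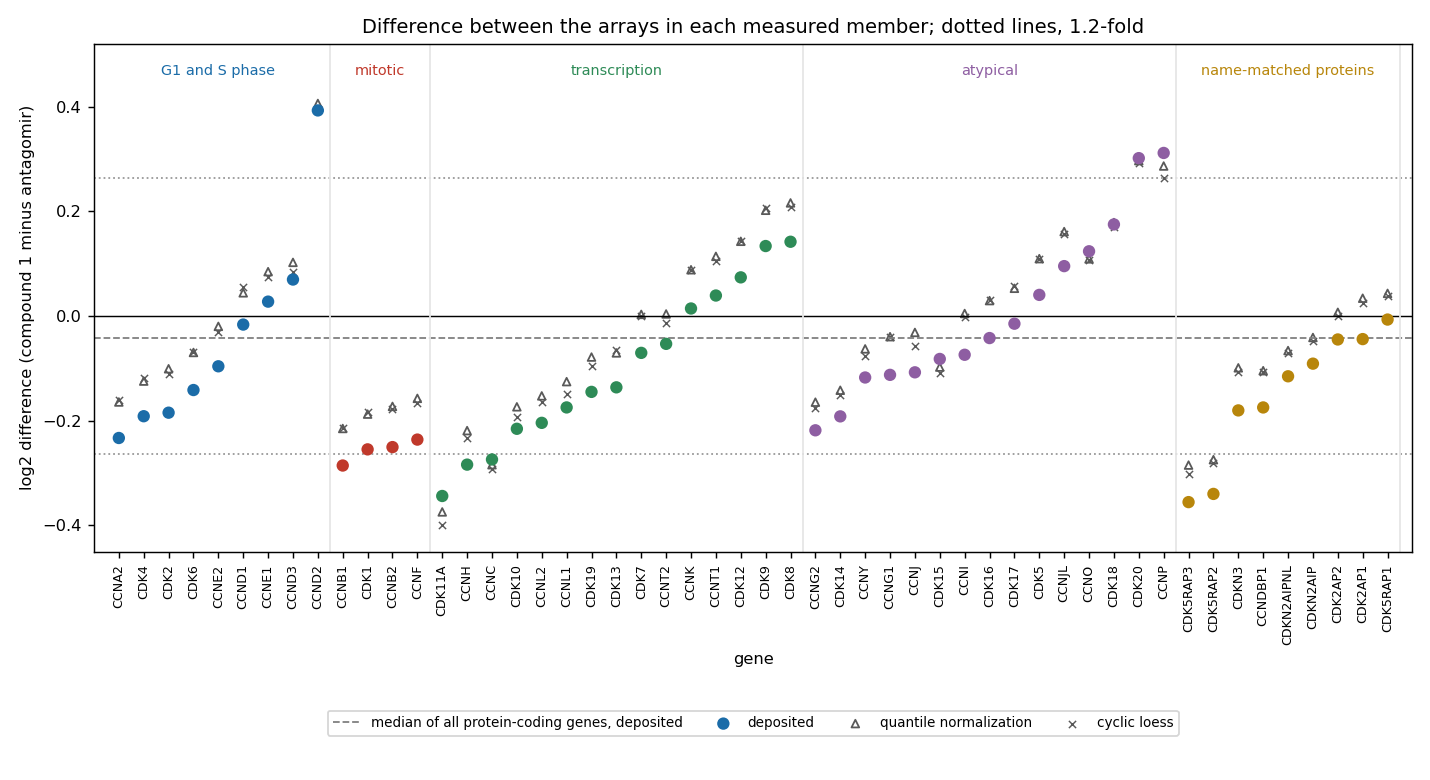
Log2 difference (compound 1 minus antagomir) of each of the 52 measured genes by role, as deposited (filled circles), after quantile normalization (triangles) and after cyclic loess (crosses); dotted lines mark 1.2-fold and the dashed line the median of all measured protein-coding genes. The mitotic genes are the only role group with all points below 0 under these 3 treatments of the data.

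The transcription branch was mixed, with 10 of 15 measured genes lower and a median of -0.14 (-0.070 after quantile normalization and -0.064 after cyclic loess). Some of its complexes held subunits on opposite sides of 0. CCNC, the cyclin of the Mediator kinase module, was at 6.51 and 6.24 (1.21-fold lower). CDK8, its kinase, was higher, at 8.64 and 8.78 (0.14), and the alternative kinase CDK19 was lower, at 7.96 and 7.81 (-0.14). CCNH, the cyclin of the CDK-activating kinase, was at 8.09 and 7.81 (1.22-fold lower), while CDK7, the kinase of that complex, was at 9.05 and 8.98 (-0.070), with a difference of 0.0034 after quantile normalization.

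Subunits of the positive elongation factor, which releases paused RNA polymerase II, differed in direction in the deposited values, with 1 lower and 2 higher. CDK9 was at 9.31 and 9.44 (0.13), CCNT1 was at 8.66 and 8.70 (0.039) and CCNT2 was at 7.66 and 7.61 (-0.053). CCNT2 turned to 0.0042 after quantile normalization, where CDK9 and CCNT1 were higher too. CDK9 and CDK8 were higher under every scaling run, by 0.20 to 0.22 after quantile normalization and by 0.21 after cyclic loess. The elongation kinases CDK12 and CDK13, which share cyclin K, differed in sign, at 0.074 and -0.14. CCNK itself was at 0.015, which turned to -0.015 after median centring.

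The splicing-linked L cyclins and their kinase were lower: CCNL1 by a difference of -0.17 and CCNL2 by -0.20. CDK11A had the second lowest difference of all members, at 5.75 and 5.41 (1.27-fold lower). It entered through the antagomir array alone and lies in the lowest level bin, where the robust SD of differences is 0.25. Its near-identical copy CDK11B is not analysed here, and signal from the copies cannot be told apart. CDK10, another kinase linked to transcription control, was at 7.26 and 7.04 (-0.22).

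Atypical members had a median close to that of all genes, with 9 of 15 lower as deposited, 6 after quantile normalization and 7 after cyclic loess. Their median of -0.042 turned to 0.030 after quantile normalization and 0.031 after cyclic loess. CCNP, a little-studied cyclin, was at 5.66 and 5.97 (1.24-fold higher). CDK20, a kinase linked to cilia and to growth control, was at 6.41 and 6.71 (1.23-fold higher). Both lie at low levels, in bins 2 and 5 of 20, where the bin medians were 0.074 and 0.044. CDK18, of the PCTAIRE group, was at 6.53 and 6.70 (0.18), and CCNO, known for its part in multiciliated cells, at 6.36 and 6.49 (0.12).

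On the lower side of the atypical group were CCNG2, a cyclin associated with cell cycle arrest, at 7.78 and 7.56 (-0.22), and CDK14, a cyclin Y partner, at 7.71 and 7.52 (-0.19). CCNY itself had a difference of -0.12, and CCNG1, a p53 target, was at 9.84 and 9.72 (-0.11). The remaining measured genes of this group (CCNI, CCNJ, CCNJL, CDK5, CDK15, CDK16 and CDK17) lay between -0.11 and 0.096. CCNYL1 did not reach the entry level (5.29 and 5.55).

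Of the CDK inhibitors proper only CDKN2A is analysed here, and neither of its values reached the entry level (5.34 and 5.57). As background, the CDKN2A locus is known to be deleted in MDA-MB-231. CDKN1A, CDKN1B, CDKN1C, CDKN2B, CDKN2C and CDKN2D are not analysed here, so the measured genes are cyclins, kinases and name-matched proteins. With the 3 genes under the entry level added, all of them higher, 38 of 55 were lower and the median was -0.091.

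All 9 name-matched proteins, which are neither cyclins nor CDKs, were lower in the deposited values, with a median of -0.11; quantile normalization left 6 lower and cyclic loess 7. CDK5RAP3, a component of the ligase that attaches the ubiquitin-like modifier UFM1, had the lowest difference of all members, at 8.29 and 7.93 (1.28-fold lower). CDK5RAP2, a centrosomal protein that anchors microtubule nucleation, was at 8.45 and 8.11 (1.27-fold lower). Of all measured protein-coding genes 3.60% and 4.20% respectively had a lower difference. CDKN3, a phosphatase that removes the activating phosphate from CDK2, was at 10.30 and 10.12 (-0.18). CCNDBP1, a helix-loop-helix protein that binds cyclin D1, was at 8.85 and 8.68 (-0.17). CDK2AP1, CDK2AP2, CDK5RAP1, CDKN2AIP and CDKN2AIPNL lay between -0.11 and -0.0065. Without these 9 proteins the median of the other 43 genes was -0.096, and 29 were lower.

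Related genes were taken from lists by function. Of 18 measured RB, E2F and DREAM complex genes, which control transcription of cell cycle genes, 14 were lower and 4 were at least 1.2-fold lower, with a median of -0.13. Over all measured protein-coding genes the shares are 58.9% lower and 9.12% at least 1.2-fold lower, which stand beside the counts of each list below as well. By level bin the share lower ran from 34.9% (bin 2 of 20) to 76.9% (bin 20), and the lists were not matched for level. The repressor E2F8 was at 9.64 and 9.15 (1.40-fold lower), and the pocket protein gene RBL2 at 8.31 and 7.88 (1.35-fold lower). LIN9 and LIN52, subunits of the MuvB core, were at -0.30 and -0.29. RB1 was at -0.034, E2F1 at 0.053, FOXM1 at -0.16 and MYBL2 at -0.17. Both quantile normalization (median -0.054) and cyclic loess (-0.055) left 10 of the 18 lower.

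Of 23 measured genes for the degradation of cyclins and inhibitors, 19 were lower and 4 at least 1.2-fold lower, with a median of -0.11. Quantile normalization (median -0.038) and cyclic loess (-0.045) each left 16 of the 23 lower. The securin gene PTTG1, whose product holds separase in check until anaphase, was at 7.32 and 6.87 (1.36-fold lower). FBXO4, an F-box protein, was at 6.71 and 6.31, and ANAPC16, a subunit of the anaphase-promoting complex, was at 8.27 and 7.90. AMBRA1, a ligase adaptor for D cyclins, was at -0.27. CDC20, the mitotic activator of the anaphase-promoting complex, was at 11.68 and 11.43 (-0.25), and FZR1, its later-acting relative, was at 0.013. Other genes of the list lay near CDC20, with ANAPC5 at -0.25 and ANAPC1 at -0.22, while UBE2S was at -0.037.

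Of 11 measured enzymes and small subunits that act on CDKs, 7 were lower, with a median of -0.038 that turned to 0.032 after quantile normalization. WEE1, the kinase that holds CDK1 inactive, was at 9.47 and 9.15 (-0.32), and CDC25C, a phosphatase that activates CDK1, was at 8.01 and 7.76 (-0.25). Genes with opposite actions on CDK1 were thus both lower. CDC14B, a phosphatase that counters CDK sites, was at 5.55 and 5.92 (1.30-fold higher) and entered through the compound 1 array alone. CKS1B and CKS2, small CDK-binding subunits, were at -0.10 and -0.038.

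The remaining lists lay nearer to 0 or held few genes. Partners of the transcription kinases had 5 of 12 measured genes lower and a median of 0.0008, with the largest differences in MEPCE (-0.26), NELFCD (-0.13) and ELL (-0.13). Of the 5 measured CDK-like kinases 3 were lower, with CDKL3 at 5.81 and 5.48 (1.26-fold lower), MOK at -0.22 and CILK1 at -0.12. A list of upstream regulators of the inhibitors and related genes, PCNA among the latter, had 9 of 14 lower. Its median of -0.060 turned to 0.016 after quantile normalization. EZH2, a histone methyltransferase that silences CDKN2A, was at 9.71 and 9.45 (-0.27), SMAD3 at -0.25 and PCNA at -0.23, while MYC was at 0.084.

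**Figure D5:**
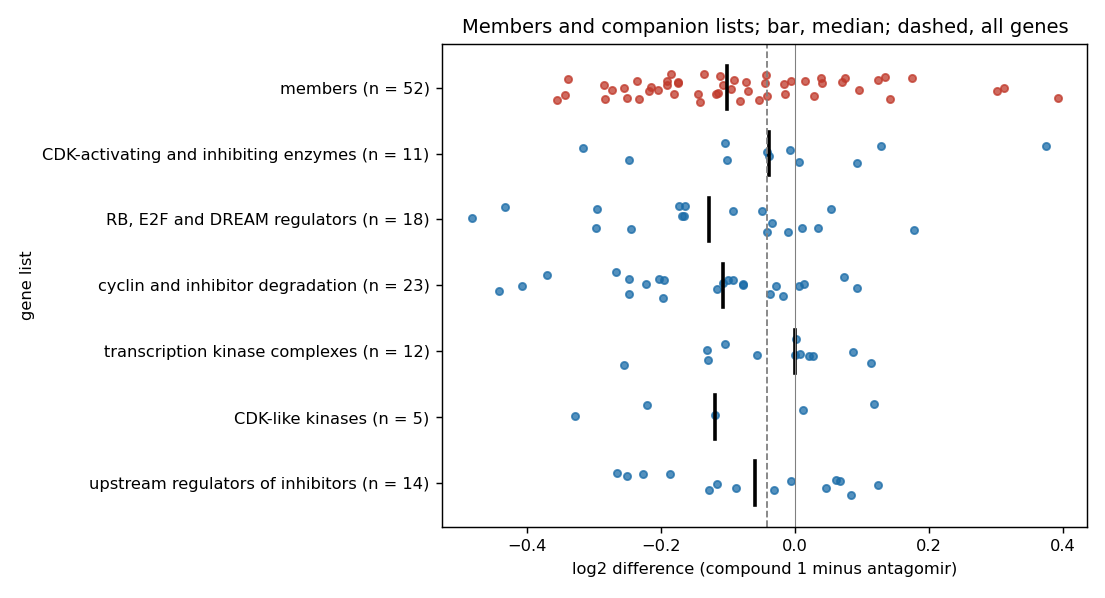
Log2 difference (compound 1 minus antagomir) of the 52 measured members (red) and of the measured genes of 6 related lists (blue), 1 point per gene, with the median of each list as a bar and the median of all measured protein-coding genes as a dashed line. Medians ran from -0.13 for the RB, E2F and DREAM genes to 0.0008 for the partners of the transcription kinases.

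Markers of the labelled line and of other cell types were checked where they had a named cluster. For MDA-MB-231 these were 7 of 12 listed, and for luminal and epithelial markers 10 of 12. Only 2 of 8 leukocyte, 3 of 5 endothelial and 2 of 6 fibroblast markers had one. VIM, CD44, ZEB1, AXL, MSN and ANXA1, which MDA-MB-231 cells are known to express, were above the entry level on both arrays with differences of -0.13 to -0.011, and S100A4 was under it. Of 10 luminal and epithelial markers, 8 were above it on at least 1 array (KRT8, KRT18, KRT19, XBP1, EPCAM, GATA3, ERBB3 and FOXA1), with differences of -0.26 to 0.25, and the hormone receptor genes ESR1 and PGR were under it. Also under it were LYZ and CD14 of leukocytes and DCN and LUM of fibroblasts. Of the endothelial markers, VWF (5.74 and 5.81) and KDR (6.92 and 7.03) were above it and PECAM1 was not. Over the measured protein-coding genes, which are no replicates, Pearson's r between the arrays was 0.993.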

How the data were processed

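Transcript levels of pooled RNA were measured on 2 Affymetrix arrays, 1 per treatment. The deposited values are log2 signals, 1 per transcript cluster and array, a scale read from their range. Per the labels they come from a gene-level analysis; the sources used here do not state background correction, normalization or log base. Of 53617 clusters, 16098 had 1 gene symbol in the platform's probe table and 37519 had none; symbols and gene types were taken through the gene identifiers from the RefSeq table for GRCh38.p14. A cluster entered when its higher value reached the 50th percentile of mean levels (28058 did), and of a gene's entering clusters the one with the highest mean stands for it. Level bins hold the measured protein-coding genes, and a robust SD is the scaled median absolute deviation of a bin. No test was possible with 1 array per treatment. All measured members of the G1 and S, mitotic and inhibitor roles are named; elsewhere those past 1.2-fold, or the 3 largest differences, and some others chosen after their values were seen. Members and lists were chosen with earlier results of these data known. The functions were tested on simulated data. Analyses used Python 3.11.15, numpy 2.4.6, pandas 2.3.3, matplotlib 3.10.9, R 4.3.3 and limma 3.58.1. Planned protein sequence features are not analysed here. The number of arrays limits the precision.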

Additional observations from a re-analysis of the deposited data

How the results depend on the processing

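With no replicates, a median was counted as moved when it changed by more than its standard error as computed from the robust SDs of single genes, and a count when it changed by over 1.5 times. Of 127 alternative summary values, 102 stayed within these limits, 22 moved and 3 were counted as turned in sign. These limits treat the genes of 1 array pair as independent and measure no replicate error. Some alternatives could not change a member: none had identical values on both arrays, and only 1 had a second cluster. The fall from 38 to 29 lower members after quantile normalization stayed within the limit for counts. A turn was counted only where the median before the change was larger than its standard error. Other medians that changed sign, such as that of the atypical members, are among the 22 or the 102. The median of all measured members was -0.13 after median centring (-0.131), -0.040 after quantile normalization and -0.052 after loess. In that order of quantile and loess values, medians came to -0.020 and -0.030 for G1 and S phase, -0.070 and -0.064 for the transcription branch, 0.030 and 0.031 for the atypical members, 0.032 (0.0318) and 0.033 for enzymes acting on CDKs, -0.054 and -0.055 for RB, E2F and DREAM genes, -0.038 and -0.045 for degradation genes, and 0.016 and 0.0050 for upstream regulators of inhibitors. With the stricter entry level of 7.10 (75th percentile), the medians were -0.070 for the transcription branch and -0.071 for RB, E2F and DREAM genes, and 0 members were at least 1.2-fold higher. With no filter the CDK-like kinases had a median of 0.013. Past 1.1-fold 21 members were lower and 5 higher, and past 1.5-fold 0 and 0. The shares of all genes past these other folds were not counted, so these numbers show only how the choice of fold matters. Of 407 alternative values of single members, 404 stayed within 1 robust SD of their level bin. The exceptions were all CCND2: 0.16 as the mean of its clusters and -0.079 with the cluster of median difference or, chosen after seeing the data, with its other cluster alone. For members with 1 cluster (54 of 55), the level filters and cluster choices could not change the value, so the 404 do not measure stability. The wider promoter window and the added CHR spellings were also chosen after seeing the data; from 250 bases before to 50 after the start, 8 members held the CHR letters (16.4% of all promoters). No paired analysis was possible because only 1 array was used for each treatment. The cause of these moves was not tested.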

Other observations

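Non-coding genes with symbols of the same form were left out of the counts above. The long non-coding RNA gene CCNT2-AS1, which lies against CCNT2, was at 5.77 (log2) with the antagomir and higher by 0.23 with compound 1. CDKN2A-AS1 (5.03 and 5.31) and CDKN2B-AS1 (4.22 and 4.23) of the CDKN2A locus did not reach the entry level, like CDKN2A itself. The cyclin Y-like pseudogenes CCNYL4 and CCNYL6 were under it too, and the separate clusters of CCNYL4 differed by 0.73 and -0.051. Of 112 measured protein-coding genes whose promoter window holds both the CHR letters and at least 2 CCAAT boxes, the median difference was -0.13, and the members among them were CCNB2, CCNF, CDK19 and CDKN3; this group was looked at after the mitotic promoters had been read, and it has no test.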
